A study of Homo sapiens with 4 samples.

Results

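The aminoacyl-tRNA synthetase genes comprise the 35 nuclear genes named here, 19 for enzymes of the cytosol and 16 for enzymes of the mitochondrion, out of 20037 protein-coding genes of the RefSeq table for GRCh38.p14. They were taken by name, and a GapR-GFP peak was assigned to a gene when its summit lay in the gene span or within 5 kb of it. All 35 names were found in the table. CUT&RUN, in which a nuclease tethered by an antibody releases the DNA next to a bound protein, was directed at the GFP tag in HCT116 cells, a human colorectal carcinoma line. The series held 2 libraries named WT, with the wild-type GapR-GFP fusion, and 2 named MT. The series design gives MT as a mutant GapR fusion, whereas the genotype label of MT names a knockout of both TOP2A and TOP2B, and the files do not settle which holds. All 4 libraries share the treatment label of 2 µM palbociclib for 28 h, a CDK4/6 inhibitor that arrests cells in G1, while the design calls the cells asynchronous. Each deposited peak list sets 1 WT library against MT replicate 1, and MT replicate 2 was not analysed here. No source used here says whether the WT replicates were separate cultures, so differences between them may be technical.

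GapR is a bacterial protein that binds overtwisted, positively supercoiled DNA, the form that builds up ahead of a moving RNA polymerase. Aminoacyl-tRNA synthetases join each amino acid to its tRNA, the step that sets the genetic code in translation. Cytosol and mitochondria mostly use separate enzymes, all encoded in the nucleus, and GARS1 and KARS1 each supply both compartments from 1 gene. The genes are transcribed in every dividing cell, and many of the cytosolic enzymes are known targets of ATF4, the transcription factor of the amino acid response. The epithelial marker genes EPCAM, CDH1, KRT8, KRT18, KRT19 and CDX2 carried shared peaks, while VIL1 had no summit in either list. Peaks do not measure expression, so this is no test of the cell type.

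Nearly every synthetase gene carried a peak found in both WT lists. Peaks of the WT replicate 1 list with 1 bp or more in common with the WT replicate 2 list are called shared and are placed at the WT replicate 1 summit. All 19 cytosolic genes and 15 of 16 mitochondrial genes had a shared summit, 34 of 35 in all, where 66.6% of all protein-coding genes had one. WT replicate 1 alone placed a summit at 35 of 35 members, beside 77.9% of protein-coding genes, and WT replicate 2 alone at 34, beside 68.3%. The exception was PARS2, which charges mitochondrial tRNA with proline. The members were chosen with earlier results of these data known and are not replicates of a condition, so no test was made of these counts or of the difference between compartments.

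The share of genes with a peak depends on gene length. Median length was 32.8 kb for the cytosolic genes, 28.4 kb for the mitochondrial genes and 24.1 kb for all protein-coding genes. Of protein-coding genes of 20 to 50 kb, 73.4% had a shared summit, against 48.9% of those under 10 kb. The 5 members under 10 kb were QARS1, HARS2, MARS2, YARS2 and PARS2, and 4 of them had one. All 30 longer members had one as well.

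Nearly every member with a listed start had a shared peak near it. Of the 50 shared summits of members, 28 lay at a listed start, 5 at a gene boundary, 6 inside genes and 11 in flanks. The sequence table gives a start for 30 members, and 28 of them had a shared summit within 1 kb of it, beside 51.3% of the 15843 protein-coding genes with a listed start. In WT replicate 1 alone the count was 29 of 30, beside 59.8%, and in WT replicate 2 alone 29 of 30, beside 53.3%. By compartment it was 16 of 16 cytosolic and 12 of 14 mitochondrial genes. Missing from the shared set were PARS2 and the leucine enzyme gene LARS2. LARS1, VARS1, YARS1, AARS2 and VARS2, which have no listed start, each had a shared summit within 1 kb of a gene boundary, at 155, 293, 556, 168 and 163 bp. Without a listed start such a boundary may be either end of the gene, so these are not counted as start summits. The VARS1 summit lay 103 bp inside the neighbouring gene VWA7, and that of YARS1 was nearer to S100PBP.

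Within that window the summits kept close to the start. Of the 28 shared start summits of members, 27 lay within 500 bp, and the farthest was that of WARS1, 639 bp upstream. Of all protein-coding shared start summits, 84.4% lay within 500 bp, at a median distance of 235 bp against 186 bp for the members. Upstream of the start lay 12 of the 28 member summits and downstream 16, beside 51.7% upstream for all protein-coding genes. The member summits left a gap from 152 bp upstream (FARSB) to 43 bp downstream (QARS1). In all protein-coding genes the 150 bp just before the start held 5.84% of summits, a range chosen after the values were seen. WT replicate 2 placed the summit of its strongest overlapping peak on the same side of the nearest start in 20 of 28 members. The median distance between the summits was 127 bp, with a range of 0 to 1282 bp. Choice of peak entered both values. EARS2 counted as a change at 461 bp upstream, though another WT replicate 2 summit lay 148 bp inside the gene. The 1282 bp came from CARS1, where a weaker WT replicate 2 summit lay 211 bp upstream, beside 244 bp. HARS1 and HARS2 both changed side through 1 shared peak, and genes with 2 listed starts could change their nearest start. In NARS1, at 259 bp upstream and 104 bp inside, 1 list did not fix the side.

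**Figure D1:**
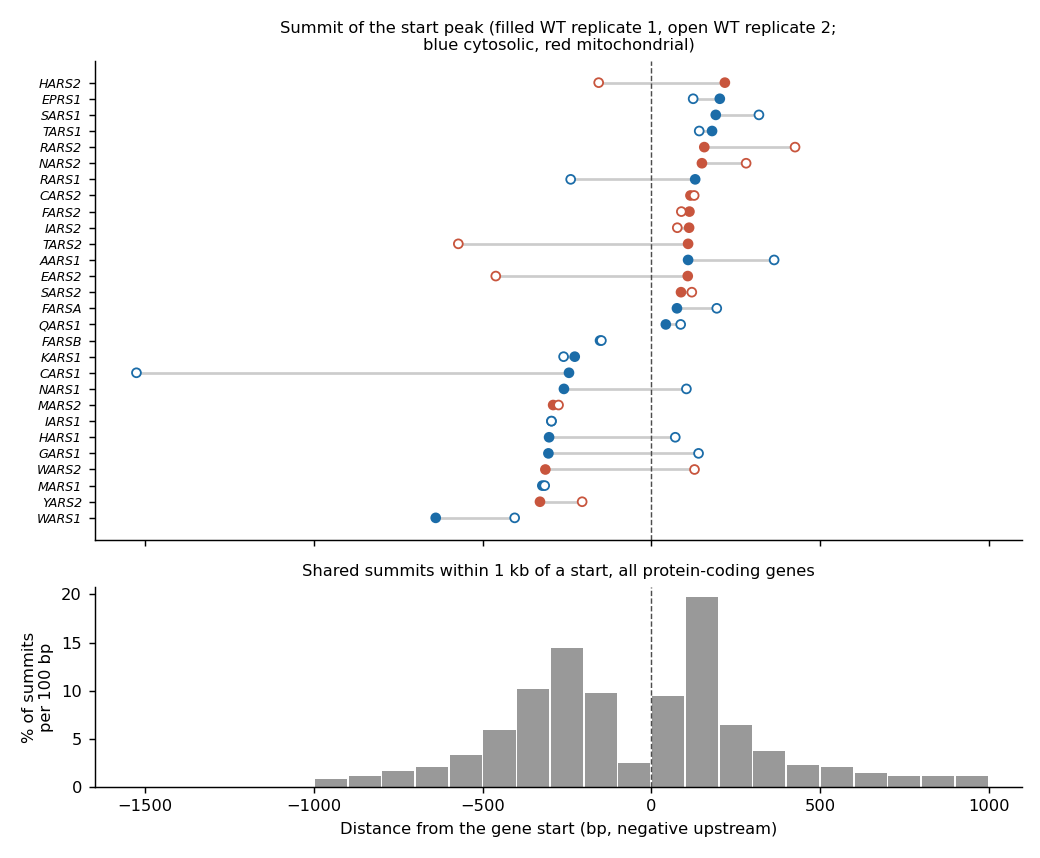
Position of the start-peak summit of 28 synthetase genes relative to the nearest listed gene start, in bp with upstream negative (top; filled points WT replicate 1, open points the strongest overlapping peak of WT replicate 2, blue cytosolic, red mitochondrial), and the percent of shared summits per 100 bp for all protein-coding genes (bottom). Filled points lie on either side of the start with none between 152 bp upstream and 43 bp downstream, and the profile of all genes dips just before the start.

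The values of a peak are its pileup, the number of WT fragments over the summit, and its fold enrichment, the authors' ratio of that pileup to the local MT level with 1 added to each. Over the members the highest fold enrichment of a shared peak had a median of 7.66 for cytosolic and 8.48 for mitochondrial genes in WT replicate 1. In WT replicate 2 the medians were 5.36 and 5.01, so the order of the compartments turned between the lists. All protein-coding genes with a shared summit had medians of 7.95 and 5.97. The ranges of the compartments overlapped, with cytosolic genes at 4.81 to 11.5 and mitochondrial genes at 4.48 to 18.0 in WT replicate 1, and at 3.95 to 9.39 and 4.07 to 8.16 in WT replicate 2. VARS2, FARS2, SARS2 and YARS2 lay above every cytosolic gene in WT replicate 1, at 11.8, 12.9, 17.5 and 18.0, whereas the mitochondrial range of WT replicate 2 lay within the cytosolic one. This highest fold was higher in WT replicate 1 for 33 of 34 members, and MARS1 was the exception at 4.88 and 6.57. Among all protein-coding genes with a shared summit it was higher there for 11250 of 13352. The lowest MT level differed between the lists, at 1.87 and 2.20, so their fold levels do not compare directly. Of members' start or boundary peaks, 30 of 33 had the higher fold in WT replicate 1. Besides MARS1, the exceptions there were FARSA at 4.18 and 6.88 and VARS1 at 4.88 and 5.30.

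**Figure D2:**
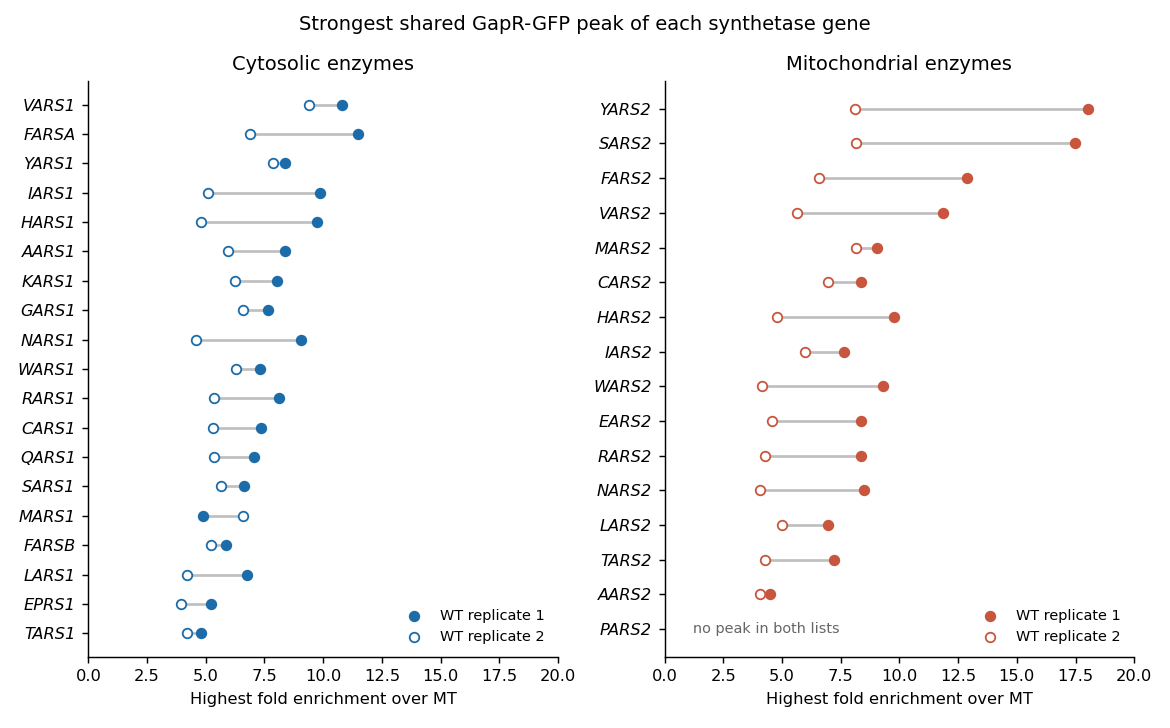
Highest fold enrichment over MT of any shared peak of each synthetase gene, for cytosolic (left) and mitochondrial (right) enzymes, in WT replicate 1 (filled) and WT replicate 2 (open), with a line joining both values of a gene. YARS2 and SARS2 stand at 18.0 and 17.5 in WT replicate 1 and at 8.13 and 8.16 in WT replicate 2, and PARS2 has no peak in both lists.

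Among the cytosolic genes, 7 encode enzymes of the multisynthetase complex, a large assembly that holds several synthetases together (EPRS1, IARS1, KARS1, LARS1, MARS1, QARS1 and RARS1). Their median highest fold came to 7.04 and 5.33 in the respective lists, and the 12 other cytosolic genes had 8.01 and 5.79. The lowest of the complex in WT replicate 2 was EPRS1, which encodes the fused enzyme for glutamate and proline, with 15 and 13 fragments and folds of 5.24 and 3.95. The highest in WT replicate 1 was the isoleucine enzyme gene IARS1, at 9.88 with 28 fragments, which fell among the others in WT replicate 2 at 5.07 with 16 fragments. Both lists put its summit at the same base, 296 bp upstream of the start. KARS1, the lysine enzyme gene on chromosome 16 (75627724 to 75647665), had 22 fragments in WT replicate 1 and 19 in WT replicate 2 at a summit 227 bp upstream, with folds of 8.01 and 6.26. That summit lay 119 bp inside the divergent telomere protein gene TERF2IP, whose start is 108 bp from that of KARS1.

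VARS1, the valine enzyme gene on chromosome 6 (31777518 to 31795752), had the highest fold of the cytosolic genes in WT replicate 2. Its strongest shared peak had 30 and 29 fragments and folds of 10.8 and 9.39. In WT replicate 1 the peak was 3996 bp long and crossed a gene boundary, with its summit over 1 kb inside the gene. WT replicate 1 placed 9 summits at VARS1 and WT replicate 2 placed 3. YARS1, the tyrosine enzyme gene, likewise held 9 and 3, of which 3 were shared. Its strongest lay 556 bp outside a gene boundary with 23 and 30 fragments and folds of 8.36 and 7.87, and was nearer to the neighbouring gene S100PBP.

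FARSA and FARSB encode the alpha and beta subunits of a single enzyme, for phenylalanine. The peak at the FARSA start had 11 fragments in WT replicate 1 and 21 in WT replicate 2, at folds of 4.18 and 6.88. The highest fold of FARSA in WT replicate 1, 11.5, came from another summit 4554 bp upstream, which lay within 1 kb of the start of CALR, the calreticulin gene. FARSB had the highest pileups of any cytosolic start peak, 35 and 38 fragments, yet folds of 5.88 and 5.23. The MT level beside it was 5.13 in the WT replicate 1 list and 6.46 in the WT replicate 2 list, where the median over cytosolic start or boundary peaks was 1.87 and 2.35. Fold and pileup thus ordered FARSB differently.

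AARS1, the alanine enzyme gene, had 3 shared summits. The start summit, 109 bp inside the gene, had 23 and 16 fragments with folds of 8.36 and 5.07. The other two lay past the gene end, by 165 and 1142 bp, on either side of the start of EXOSC6, a gene of the RNA exosome. GARS1, the glycine enzyme gene, carried a start peak of 3809 bp, the longest at a cytosolic start, with 21 and 20 fragments and folds of 7.66 and 6.57.

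The strongest members in WT replicate 1 were mitochondrial. SARS2, the mitochondrial serine enzyme gene on chromosome 19 (38915266 to 38930763), had 60 fragments in WT replicate 1 (95% exact Poisson interval 45.8 to 77.2) and 31 in WT replicate 2 (21.1 to 44.0) at a summit 88 bp inside the gene. Its folds were 17.5 and 8.16. YARS2, the mitochondrial tyrosine enzyme gene on chromosome 12 (32746544 to 32755897), had 51 fragments (38.0 to 67.1) and 25 (16.2 to 36.9) at a summit 330 bp upstream, with folds of 18.0 and 8.13. The intervals cover counting error only, and a pileup at a summit is a local maximum. In WT replicate 1 both pileups were above those of the other start peaks of members, though both intervals overlapped that of FARS2 (25.2 to 49.8). In WT replicate 2 FARSB, with 38 fragments (26.9 to 52.2), stood above both, and their intervals overlapped those of several members.

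The windows from 250 bases before to 50 bases from the start of these genes, from RefSeq on GRCh38.p14, lay whole under their shared peaks. They are shown as the start sequence within the strongest member peaks of WT replicate 1, 5′ to 3′ along the gene, with capitals marking matches to the motifs described below (SARS2 at chr19:38930714-38931013, minus strand, and YARS2 at chr12:32755848-32756147, minus strand). The SARS2 summits, 88 and 120 bp inside the gene, and the WT replicate 1 summit of YARS2, 330 bp upstream, lay outside these windows.
SARS2: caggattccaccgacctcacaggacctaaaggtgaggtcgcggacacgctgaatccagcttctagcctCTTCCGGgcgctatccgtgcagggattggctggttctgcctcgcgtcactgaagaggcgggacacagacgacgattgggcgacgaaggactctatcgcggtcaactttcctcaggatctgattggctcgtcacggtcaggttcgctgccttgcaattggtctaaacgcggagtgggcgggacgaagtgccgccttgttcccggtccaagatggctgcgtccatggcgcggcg
YARS2: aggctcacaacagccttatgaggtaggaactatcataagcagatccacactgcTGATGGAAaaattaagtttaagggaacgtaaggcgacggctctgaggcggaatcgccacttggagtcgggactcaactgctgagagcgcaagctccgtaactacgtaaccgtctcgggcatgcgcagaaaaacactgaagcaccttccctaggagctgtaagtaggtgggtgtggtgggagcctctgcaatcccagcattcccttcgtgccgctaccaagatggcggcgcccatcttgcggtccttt

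FARS2, the mitochondrial phenylalanine enzyme gene, was the longest member at 522 kb. Its start peak had its summit 113 bp inside a listed start and 11186 bp from the outer gene boundary, with 36 fragments in WT replicate 1 and 21 in WT replicate 2 and folds of 12.9 and 6.57. No other summit of FARS2 in WT replicate 1 was found in WT replicate 2. MARS2, the mitochondrial methionine enzyme gene, is the shortest at 3.03 kb, and its peak 291 bp upstream had 25 fragments in each list, with folds of 9.06 and 8.14. VARS2 had 33 and 17 fragments with folds of 11.8 and 5.63.

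LARS2 had 4 shared summits, the most of any member, at folds of 3.56 to 6.97 over both lists. In WT replicate 1 a single peak of 1765 bp covered its start with a summit 1155 bp inside the gene and 19 fragments. WT replicate 2 placed separate summits there, 301 bp upstream and 164 and 1334 bp inside, each with 14 fragments. Its absence from the start count therefore rests on where the summit fell within that WT replicate 1 peak. The other 3 shared LARS2 summits lay 123 and 157 kb into the gene and 2339 bp past its end. CARS2, the mitochondrial cysteine enzyme gene, had 3 shared summits with fold values of 7.19 to 8.36 in WT replicate 1 and 5.63 to 6.94 in WT replicate 2, and 2 of them lay within 1 kb of a start of ING1, a chromatin reader gene.

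PARS2, on chromosome 1 (54756898 to 54764523), had 1 summit in WT replicate 1, 260 bp upstream of its start, and none in WT replicate 2. The WT replicate 1 peak was 823 bp long with 22 fragments, a fold of 4.43 and an MT level of 4.20. That pileup was near the median of 23 over the cytosolic start or boundary peaks. Of the other members' start or boundary peaks in that list, FARSB lay at a higher MT level, TARS1 at the same one, and the rest lower. Absence from the WT replicate 2 list says only that no peak passed the authors' threshold. The PARS2 window (chr1:54764474-54764773, minus strand) is shown as the start without a shared peak, with the same marking.
PARS2: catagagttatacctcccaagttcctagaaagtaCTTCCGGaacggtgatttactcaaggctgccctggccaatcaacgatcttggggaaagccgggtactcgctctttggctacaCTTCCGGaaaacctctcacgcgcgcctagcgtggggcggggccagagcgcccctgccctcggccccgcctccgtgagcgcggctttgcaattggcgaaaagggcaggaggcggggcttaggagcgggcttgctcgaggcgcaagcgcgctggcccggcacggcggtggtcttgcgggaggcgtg

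Genes for the same amino acid gave 17 pairs of a cytosolic and a mitochondrial gene, with EPRS1, FARSA, FARSB and FARS2 entering as their subunits or functions require. One had no value (EPRS1 with PARS2), and HARS1 and HARS2 shared their strongest summit. Of the other 15, the mitochondrial gene had the higher fold in both lists in 8, the cytosolic gene in 2, and the order differed between lists in 5. These are the highest folds of any shared peak within 5 kb, so a pair can set different places or a neighbour's peak side by side. The leucine pair was among the 8 through LARS2 peaks 2339 bp past the gene end (6.97) and deep inside the gene (5.01). The LARS2 peak over the start had 4.69 and 3.99, below the LARS1 boundary peak at 6.75 and 4.20. The pairs were not counted again on start peaks alone. The 3 pairs farthest apart were SARS1 with SARS2, YARS1 with YARS2 and FARSB with FARS2. For serine, SARS1 had 18 fragments (10.7 to 28.4) in WT replicate 1 against 60 for SARS2, with intervals apart, and 17 (9.90 to 27.2) in WT replicate 2 against 31, with intervals that overlapped. For tyrosine, YARS1 and YARS2 differed by 9.68 in fold in WT replicate 1 and by 0.256 in WT replicate 2, so WT replicate 1 alone set that difference. FARS2 and FARSB had nearly the same pileup in WT replicate 1, 36 and 35 fragments, and FARSB had the higher in WT replicate 2, 38 against 21. The MT level beside them was 1.87 at FARS2 and 5.13 at FARSB in the WT replicate 1 list. The alanine pair went the other way, with AARS1 above AARS2 by folds of 8.36 against 4.48 and 5.95 against 4.07. The 5.95 came from a summit past the AARS1 end, near the EXOSC6 start, and the AARS1 start peak had 5.07 in WT replicate 2.

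**Figure D3:**
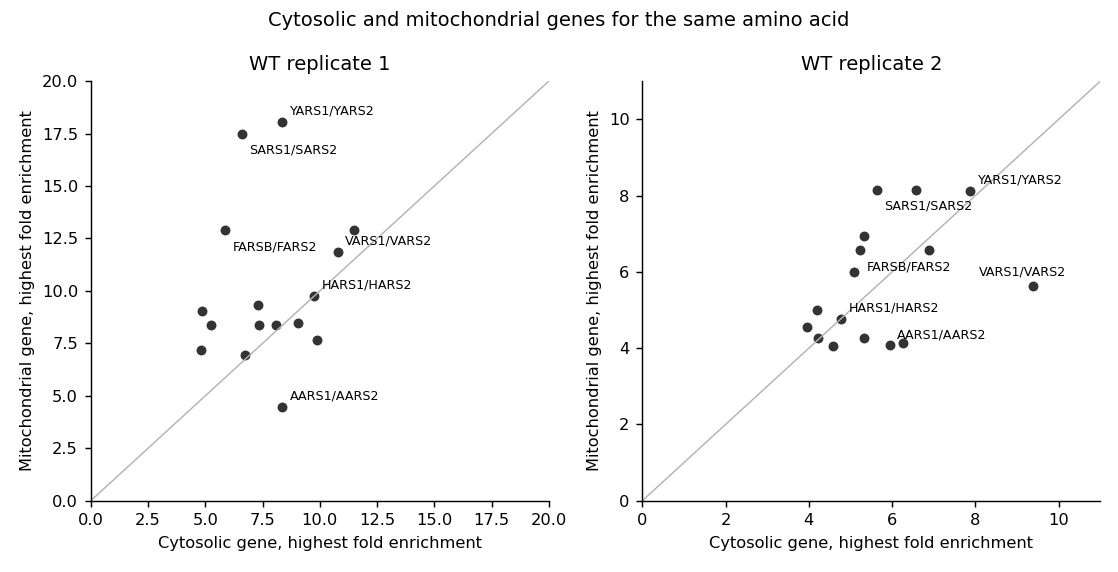
Highest fold enrichment of the cytosolic (horizontal) and mitochondrial (vertical) gene for the same amino acid in WT replicate 1 (left) and WT replicate 2 (right), 1 point per pair, with the line of equal values. SARS1/SARS2 and YARS1/YARS2 lie far above the line in WT replicate 1, at 17.5 and 18.0 on the vertical axis, and the tyrosine pair lies close to it in WT replicate 2.

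Inside the genes but away from the start, few summits of WT replicate 1 were also found in WT replicate 2. WT replicate 1 placed 118 summits at the members and WT replicate 2 placed 65, and 50 were shared, at 49 distinct peaks. For members with a listed start, 28 of 29 start summits of WT replicate 1 overlapped a WT replicate 2 peak, beside 79.7% for all protein-coding genes. Of their 38 summits inside the gene but over 1 kb from a start, 4 did (10.5%), beside 26.8% for all protein-coding genes. In the other direction, 4 of the 9 inner summits of WT replicate 2 overlapped a WT replicate 1 peak (44.4%), beside 80.3%. These inner peaks of WT replicate 1 were short and weak, with a median length of 349 bp and a median fold of 3.48, against 1451 bp and 8.11 at the starts. EPRS1 held 7 summits in WT replicate 1 and 1 in WT replicate 2, and the arginine enzyme gene RARS2 held 9 and 1. CARS1, at 56.5 kb, and WARS2, at 109 kb, each held a single WT replicate 1 summit, which lay at the start.

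**Figure D4:**
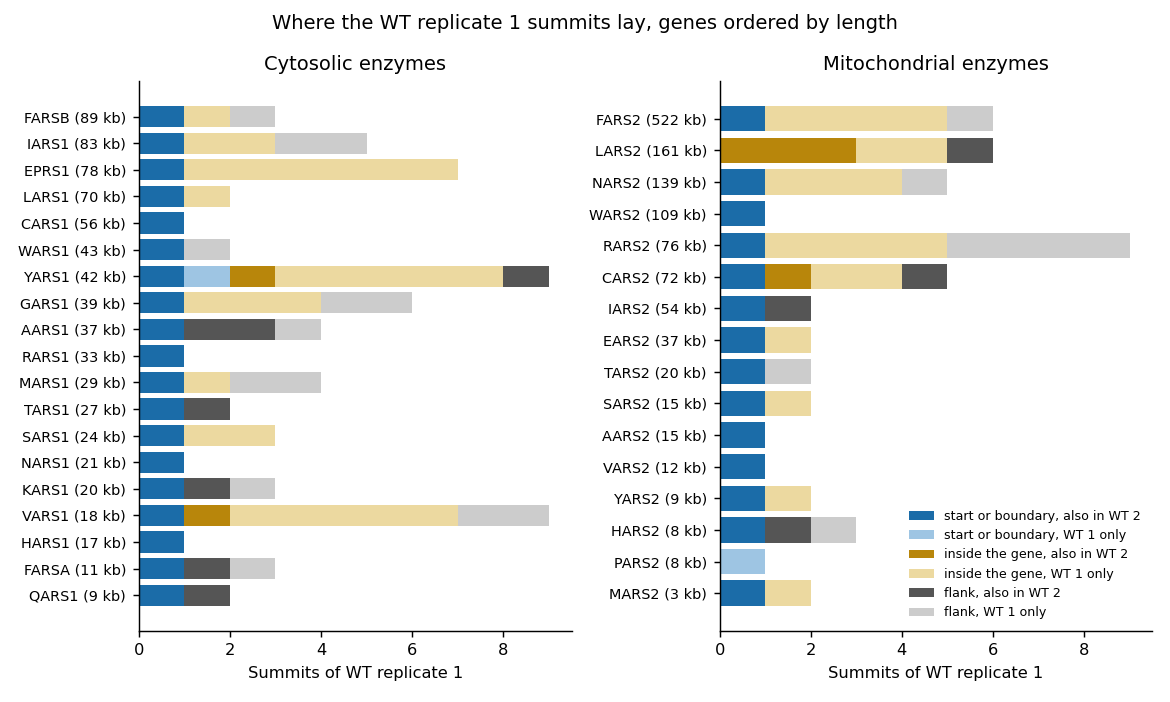
Number of WT replicate 1 summits per synthetase gene by place (start or boundary, inside, or in the 5 kb flank) and by whether the peak was also found in WT replicate 2 (dark) or not (light), with genes ordered by length. Dark blue start or boundary segments are present in 33 of 35 genes, while inner summits are mostly light.

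Of the 11 shared summits in the flanks of members, 7 lay within 1 kb of the start of another gene, CALR, EXOSC6 and the tRNA deaminase gene ADAT1 among them. The 5 kb rule therefore gave some members a neighbour's peak. When a summit counted only where no other protein-coding gene was nearer, 15 of 19 cytosolic and 15 of 16 mitochondrial genes kept one, beside 59.3% of all protein-coding genes.

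Several synthetase genes share their start region with a gene of the opposite strand. Of the 30 members with a listed start, 8 had a divergent protein-coding gene whose start lay within 1 kb upstream, or 26.7%, beside 12.3% of all protein-coding genes with a start. They were HARS1 and HARS2, KARS1 with TERF2IP, WARS1 with WDR25, EARS2 with UBFD1, FARS2 with LYRM4, RARS2 with ORC3, and SARS2 with MRPS12. All 8 had a shared start summit. Among all protein-coding genes 81.9% of such divergent genes had one, and 47.1% of the others. HARS1 and HARS2, which charge histidine tRNA in cytosol and mitochondria, start 85 bp apart on chromosome 5. A single peak of 1767 bp covered both starts, with 27 and 15 fragments in the respective lists and folds of 9.75 and 4.78. Its WT replicate 1 summit lay 218 bp inside HARS2 and its WT replicate 2 summit 71 bp inside HARS1, so the lists disagreed on the gene. The HARS2 window (chr5:140691205-140691504, plus strand) holds both starts and is shown with ETS motif matches in capitals.
HARS2: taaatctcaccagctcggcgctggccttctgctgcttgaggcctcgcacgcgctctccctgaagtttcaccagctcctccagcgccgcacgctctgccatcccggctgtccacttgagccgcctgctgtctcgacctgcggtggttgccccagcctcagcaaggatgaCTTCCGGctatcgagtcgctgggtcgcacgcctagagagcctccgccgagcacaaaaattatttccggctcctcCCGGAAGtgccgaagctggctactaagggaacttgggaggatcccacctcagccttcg

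The median GC content of the member start windows was 62.0%, with a range of 46.7 to 73.0%, and the median over all protein-coding windows was 62.7%. Of protein-coding genes with a window of 50 to 60% GC, 46.5% had a shared start summit, and all 9 members of that class had one. In the class of 60 to 70% it was 63.0%, and 15 of 17 members. FARSB, the only member under 50%, had a start summit, as 18.8% of protein-coding genes of that class did. The shared peaks covered 26 of the 30 member windows whole.

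Windows were searched on both strands for the core of the ATF4 element (TGATGNAA), the palindromic NRF1 motif, the E-box (CACGTG) and an ETS motif (CCGGAAG), and matches of different motifs may overlap. The ETS motif was in 14 of 30 member windows (8 cytosolic, 6 mitochondrial) and in 14.2% of protein-coding windows. The E-box was in 4, beside 8.88%, and the NRF1 motif was in MARS2 alone, beside 1.75%. The ATF4 core was in 7, of which 6 were cytosolic and 1 mitochondrial, beside 2.53%. A match is a run of letters and does not show binding of a factor. PARS2 had 2 ETS matches and no shared peak, so the motif did not go with a peak in every member. Among all protein-coding genes, 75.1% of those with an ETS match had a shared start summit, and 47.4% of those without. For the E-box the shares were 59.8% and 50.5%, and for the NRF1 motif 77.3% and 50.9%. A link between motifs and peaks was not tested.

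The ATF4 core matches in cytosolic genes were alike in letters and place. All 6 read TGATGCAA, which occurred in 106 of the 15843 protein-coding windows (0.669%) and in no mitochondrial member. That form was counted after the matches were seen. In 5 of the 6 genes the match lay at the start itself, its first base along the gene between 13 bp upstream (IARS1) and 14 bp downstream (NARS1), and in AARS1 it began 187 bp upstream. The match of the mitochondrial gene YARS2 reads TGATGGAA and began 197 bp upstream. All 7 genes had a shared start summit, at folds of 4.81 to 18.0 in WT replicate 1 and 4.21 to 8.13 in WT replicate 2. Among all protein-coding genes whose window holds TGATGNAA, 30.2% had one, beside 51.9% of those whose window does not. The sites are given with the motif in capitals and up to 8 bases on either side, read along the strand of the motif.
AARS1: aacttggcTGATGCAActgcgaga
CARS1: ctagaatcTGATGCAAccgccgcc
IARS1: cacggaggTGATGCAAcgcgctga
MARS1: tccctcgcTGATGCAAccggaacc
NARS1: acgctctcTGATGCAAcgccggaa
TARS1: ggaccagcTGATGCAAtcgaaagg
YARS2: cacactgcTGATGGAAaaattaag
In hg38 they lie at chr16:70289678-70289701 (plus), chr11:3057410-3057433 (plus), chr9:92293695-92293718 (plus), chr12:57488056-57488079 (minus), chr18:57621807-57621830 (minus), chr5:33440959-33440982 (minus) and chr12:32756079-32756102 (minus).

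Other genes of tRNA charging carried peaks as well. Of 15 such genes 13 had a shared summit in the gene or within 5 kb, beside 66.6% of all protein-coding genes. Their median highest folds were 8.36 and 6.57 in the WT lists, beside 7.95 and 5.97 for all protein-coding genes with a shared summit. All 3 genes of the multisynthetase scaffold, AIMP1, AIMP2 and EEF1E1, had a shared start summit, beside 51.3% of protein-coding genes with a listed start. Their highest folds of any shared peak were 5.57 and 4.64, 8.36 and 6.57, and 10.8 and 8.65. The EEF1E1 start peak had 5.95 in WT replicate 2. GATB, a subunit of the mitochondrial amidotransferase that completes glutamine charging, and TRNT1, which adds the tRNA end to which amino acids are joined, had no WT replicate 2 summit, against 4 and 2 in WT replicate 1. The tRNA export gene XPOT had highest folds of 12.01 and 7.87, while its start peak had 5.69 and 3.54. All 15 genes of the amino acid response had a shared summit, at medians of 8.01 and 5.95, close to those of all protein-coding genes. Of the 13 with a listed start, 11 had a shared start summit. Among them, ASNS, the asparagine synthetase gene, had 9.18 and 7.04 at its start, and ATF4 itself had 6.93 and 4.60.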

How the data were processed

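GapR-GFP CUT&RUN peaks from 2 WT libraries of HCT116 cells were used, each called by the authors against MT replicate 1. Alignment and calling tools are listed in the submitters' processing notes as Bowtie2 2.3.4 and MACS2 2.1.2, with ChIPseeker 1.28.3 beside them and hg38 as the build. Narrow peaks were called on paired-end fragments with q-values up to 0.05, lengths of 200 bp or more and at most 2 fragments per position, per the file headers. Filtered fragments numbered 21774260 in WT replicate 1, 27443146 in WT replicate 2 and 23356540 in MT replicate 1, per the file headers. The lists held 81404 and 42656 peaks, besides 7 on the mitochondrial chromosome that were left out.

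The deposited pileup is a signal, the WT coverage at the summit, and the deposited fold enrichment is a ratio to the local MT level. The deposited −log10 p-values and −log10 q-values served only as a threshold in an alternative. MT levels were computed back from pileup and fold, taking pileups as unscaled since all were whole numbers. The lowest such level, 1.87 and 2.20, is the genome background of each list, below which a true MT level cannot raise the fold. Fold enrichments are therefore best read within a list, and comparisons of their level between lists carry this difference in background.

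Genes, starts and start windows came from RefSeq tables for GRCh38.p14, with the first listed window per gene used for sequence counts. The analysis used Python 3.11.15, pandas 2.3.3 and scipy 1.17.1, and summit assignment was checked on simulated data. The members, lists and motifs were chosen with earlier results of these data known, and no test over genes was made. Members described at length were, per compartment, the 5 best by the worse rank of highest fold in both lists, the 3 with most shared summits, those without one, genes sharing a summit, GARS1 and KARS1, and the 3 pairs farthest apart. Others were named after their values were seen. Alternatives varied the window, assignment, replicate, overlap, threshold, MT level and members.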

Additional observations from a re-analysis of the deposited data

How the results depend on the processing

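The counts of genes with a shared summit, 19 of 19 cytosolic and 15 of 16 mitochondrial, stayed within 1.5 times under 9 and 10 of 13 alternatives. Summits inside the gene span alone left 10 cytosolic and 11 mitochondrial genes (46.7% of all protein-coding genes). An overlap of 50% of both peaks left 11 and 9 (49.9%), a −log10 q of at least 10 in both lists left 6 and 5 (29.6%), and only peaks within 1% of the lowest MT level of each list left 8 and 7 (32.7%). With 1 WT list alone, the counts were 19 cytosolic in either list and 15 to 16 mitochondrial. The median highest fold, averaged over both lists per gene, was 6.79 for cytosolic and 6.82 for mitochondrial genes. Spread between the lists was taken as the standard deviation of their medians, 1.63 for cytosolic and 2.46 for mitochondrial genes. The median highest fold moved by more than that only for mitochondrial genes at the −log10 q threshold, to 9.73 over 5 genes. At the −log10 q threshold, the 6 of 19 cytosolic and 5 of 16 mitochondrial genes lay close to the 29.6% of all protein-coding genes. The excess of members over all protein-coding genes was thus nearly absent at that setting. No paired analysis was possible because both lists use MT replicate 1 as control and no test was run over samples. Depth limits what a missing peak shows, since the weakest listed peaks held 7 and 9 fragments.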
